A study of Saccharomyces cerevisiae with 6 samples.

Results

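The comparison described here sets budding yeast growing on xylose against the same strain growing on glucose, both in well-aerated culture. It rests on 2 of the 6 arrays of the study, 1 for each sugar, chosen by their labels, and on all 9274 yeast probe sets of the Affymetrix array. The strain, YSX3, is a MATalpha haploid Saccharomyces cerevisiae with 3 genes of the xylose-fermenting yeast Pichia stipitis in its chromosomes, at leu2::LEU2-XYL1, ura3::URA3-XYL2 and Ty3::NEO-XYL3. Both aerobic cultures carried all 3 genes, so they differed in the sugar and not in the genotype. Each was grown in 200 ml of YP medium (yeast extract and peptone) with 20 g/L of sugar, in a 1000 ml flask shaken at 300 rpm, and was collected at an OD600 of 1. The other 4 arrays form a glucose and xylose pair of oxygen-limited YSX3 cultures (40 g/L of sugar, OD600 of 30) and a pair of the respiration-deficient mutant FPL-YSX3P, a petite grown on glucose to an OD600 of 1 and then held on xylose for 24 hours. With 1 array per culture the spread between cultures of a condition was not measured, and no p-value is given. Fold differences below describe these 2 cultures.

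Xylose enters S. cerevisiae through its hexose transporters. The introduced XYL1 and XYL2 enzymes reduce it to xylitol and oxidise that to xylulose, the XYL3 kinase phosphorylates xylulose, and the pentose phosphate pathway carries the product to glycolysis. Glucose is the preferred sugar of this yeast and represses genes for respiration, for the use of ethanol, lactate, acetate, glycerol and fatty acids, and for gluconeogenesis. The repression acts through the Mig1 family of repressors and is lifted by the Snf1 kinase and the activators Adr1, Cat8 and Hap4. A separate circuit, with the membrane sensors Snf3 and Rgt2 and the regulators Mth1, Std1 and Rgt1, matches the set of hexose transporters to the glucose level. The Pichia transcripts themselves were not analysed here.

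Of 5656 genes with a probe set of their own, 5139 could be compared, because at least 1 of the 2 arrays read above the intensity floor of 61.7 at which low values were set. The remaining 517 genes were at the floor on both arrays. A total of 161 genes (3.13%) were at least 2-fold higher on xylose and 108 (2.1%) at least 2-fold lower. The counts of each gene list below are to be set beside these 2 shares. The median difference over all compared genes was -0.00069 on the log2 scale, and the central 95% of genes lay between -0.94 and 1.22. All values are relative to the median of each array, so a difference in total mRNA per cell was not measured. For 252 genes 1 of the 2 arrays was at the floor, and their folds are written as "at least". Of 315 genes read by several probe sets, 246 could be used to measure how those probe sets differ, and the spread between probe sets of a gene was 0.21 on the log2 scale, which measures the probes and not the cultures. The 15 highest genes were led by CYB2, HSP12, ALA1, AGX1, FAT3, TMA10 and ADH2, and the 15 lowest by HXT1, PHO3, HXT3 and RLP7.

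**Figure D1:**
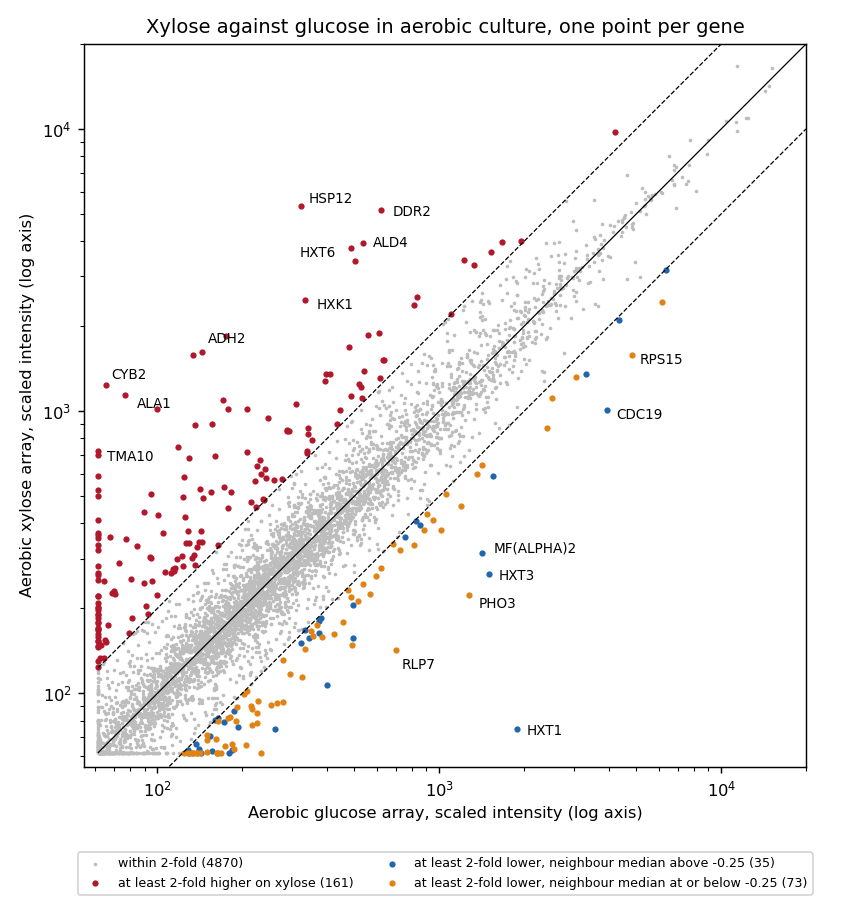
Scaled intensity of 5139 genes on the aerobic glucose array (horizontal, log axis) and the aerobic xylose array (vertical, log axis), 1 point per gene, with the line of equality and dashed lines at 2-fold. The 161 higher genes include CYB2 and HSP12 far above the dashed line; of the 108 lower genes, 73 (orange) had neighbouring probe sets that were also low and 35 (blue) did not. HXT1, at 1892 on glucose and 74.8 on xylose, lies farthest below the line.

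The lower genes were not spread evenly over the array's probe set numbers, and this bears on how the lower values below are read. Numbers from 7500 up to 9000 held 20.0% of the compared genes, 82 of the 108 lower genes and 34 of the 161 higher genes. Differences of probe sets with adjacent numbers correlated at 0.27 and of numbers 70 apart at 0.19, against 0.026 at 35 apart. The oxygen-limited pair gave 0.23, 0.13 and 0.013 at the same distances, and the petite pair 0.14, 0.025 and 0.013. These are descriptions over probe sets of the same 2 arrays in each pair. A neighbour median was therefore computed for each gene, over probe sets within 2 numbers and those 68 to 72 numbers away. It was at or below -0.25 for 73 of the 108 lower genes, and at or above 0.25 for 6 of the 161 higher genes. Each aerobic array was then set against the mean of the 4 other arrays, over probe sets above the common median on at least 1 array. Among 431 of these with such low neighbours, the aerobic xylose array lay at a median of -0.53 and the aerobic glucose array at -0.011. Among the 5614 with neighbours above -0.25, the medians were 0.17 and 0.11. The array's own control probe sets differed from the yeast probe sets of the same genes in places. The URA3 control read 3190 on glucose and 1196 on xylose, a difference of -1.41, where the yeast URA3 probe set differed by -0.16. The RIP1 control differed by -0.70 and the yeast RIP1 probe set by 0.59. The SPT15 3′ control differed by -1.60 and the 5′ and middle controls by -0.15 and -0.17, against -0.15 for the yeast probe set. The WBP1 control was at -0.073 against -0.0053, and the ACT1 controls lay between -0.0049 and 0.36, against 0.098. With the neighbour median subtracted, 168 genes were higher and 31 lower, so that higher genes made up 84.4% of the called genes instead of 59.9%. The cause of the low neighbourhoods was not tested. The neighbour median is given beside each lower gene where it reached -0.25.

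**Figure D2:**
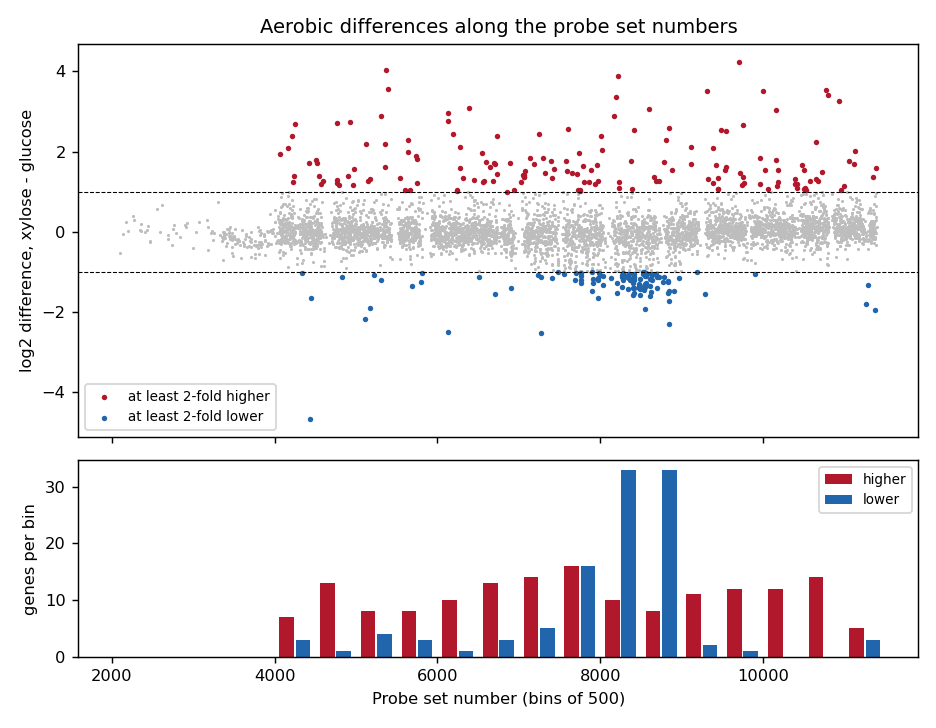
Upper panel: log2 difference (xylose minus glucose) of each compared gene against its probe set number, with dashed lines at 2-fold. Lower panel: higher (red) and lower (blue) genes per 500 numbers. The 2 bins that start at 8000 and 8500 each hold 33 lower genes, and no other bin holds more than 16; higher genes run between 5 and 16 per bin from number 4000 on.

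Low-affinity and high-affinity hexose transporter genes differed in opposite directions between the sugars. HXT1, which encodes a low-affinity glucose transporter, read 1892 on glucose and 74.8 on xylose, 25.3-fold lower and the lowest of the 5139 compared genes. HXT3, a second low-affinity transporter, read 1503 and 264.9, 5.67-fold lower. The high-affinity transporters went the other way. HXT6 read 485 on glucose and 3775 on xylose, 7.78-fold higher, and HXT7 read 500.4 and 3404, 6.80-fold higher. The HXT6 and HXT7 sequences are almost the same, and their 2 readings may hold one common signal. HXT2 was at 739 and 1364 and HXT5 at 116 and 188, both higher on xylose by less than 2-fold. HXT4 (155 and 150.5), GAL2 (177 and 197) and HXT8 (65.4 and 65.6) differed by 0.16 or less on the log2 scale, and HXT10 and HXT14 were at the floor on both arrays. In all, 2 of 9 compared transporters were higher and 2 lower.

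Regulators of these transporters differed as well. MTH1, a corepressor that keeps HXT genes off when glucose is scarce, was at the floor on glucose and read 336 on xylose, at least 5.44-fold higher. Its paralogue STD1 went the other way, from 382 to 185, 2.07-fold lower. MIG2 and MIG3, the paralogues of the glucose repressor MIG1, were lower on xylose: MIG2 read 322 and 151.3 (2.13-fold) and MIG3 read 193 and 75.9 (2.54-fold). MIG2 had a neighbour median of -0.00072 and MIG3 one of 0.014. MIG1 itself was at 219 and 236. The high-affinity sensor gene SNF3 read 81.4 and 137, a difference of 0.75, and the low-affinity sensor gene RGT2 read 81.3 and 83.5. In this group 1 of 11 genes was higher and 3 lower, with a median of 0.038.

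Activators of glucose-repressed genes were higher on xylose. ADR1, the activator of genes for ethanol and fatty acid use, was at the floor on glucose and read 267 on xylose, at least 4.33-fold higher. CAT8, the activator of gluconeogenic genes, was at the floor on glucose and at 154 on xylose, at least 2.49-fold higher. HAP4, the regulated subunit of the activator of respiratory genes, read 342 and 829, 2.42-fold higher. These were 3 of the 13 compared genes of the group, none was lower, and the group's median was 0.34. The kinase gene SNF1 was at 242 and 249, and SIP4 was at the floor on both arrays.

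The sugar kinases and glycolysis gave isoform differences. HXK1, the hexokinase isoform that glucose represses, read 333 on glucose and 2467 on xylose, 7.41-fold higher. The glucokinase gene GLK1 was at 1957 and 3994, 2.04-fold higher, and HXK2, the isoform that predominates on glucose, at 2417 and 1830, a difference of -0.40. Of 13 glycolytic genes from PGI1 to pyruvate kinase, 1 was higher and 2 were lower, with a median of -0.23. CDC19, the main pyruvate kinase, read 3920 on glucose and 1010 on xylose, 3.88-fold lower with neighbours at 0.16. The minor pyruvate kinase gene PYK2 read 173 and 288, a difference of 0.74. ENO2, the enolase isoform induced by glucose, was at 4329 and 2111, 2.05-fold lower, and its partner ENO1 at 552 and 903. TDH1, a minor isoform of glyceraldehyde-3-phosphate dehydrogenase, was at 146 and 492, 3.38-fold higher, and the major isoform TDH3 at 8957 and 9163. The remaining enzymes differed by less than 2-fold, such as PGI1 (1579 and 911), PFK1 (1580 and 1205), PGK1 (4926 and 3367) and FBA1 (5688 and 5813).

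Pentose phosphate genes, the route by which xylulose phosphate is used, had a median of 0.32, with 3 of 11 higher and 1 lower. Each of the 3 higher ones was a minor isoform. TKL2, a second transketolase, read 94.7 and 509 (5.37-fold). SOL4, a second 6-phosphogluconolactonase, read 113 and 276 (2.43-fold), and NQM1, a second transaldolase, read 99.7 and 223 (2.24-fold). The 3 probe sets of TKL2 gave differences from 1.29 to 2.61. The main isoforms differed less. TKL1 was at 1991 and 1533 (neighbour median -0.72), TAL1 at 2069 and 2116, SOL3 at 756 and 1009, and GND1 at 2350 and 2926. ZWF1, the first enzyme of the oxidative branch, read 669 and 930, a difference of 0.48. RKI1, the ribose-5-phosphate isomerase, was the lower member at 569.5 and 225, a difference of -1.34 beside a neighbour median of -1.28. Among the yeast's own xylose-related genes, GCY1, an aldo-keto reductase and glycerol dehydrogenase, read 156 and 902, 5.80-fold higher. GRE3, the main native aldose reductase, was at 408 and 489.5, the native xylitol dehydrogenase XYL2 at 92.4 and 110.2, and the xylulokinase XKS1 at 175 and 275.5. None of these 3 passed 2-fold.

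**Figure D3:**
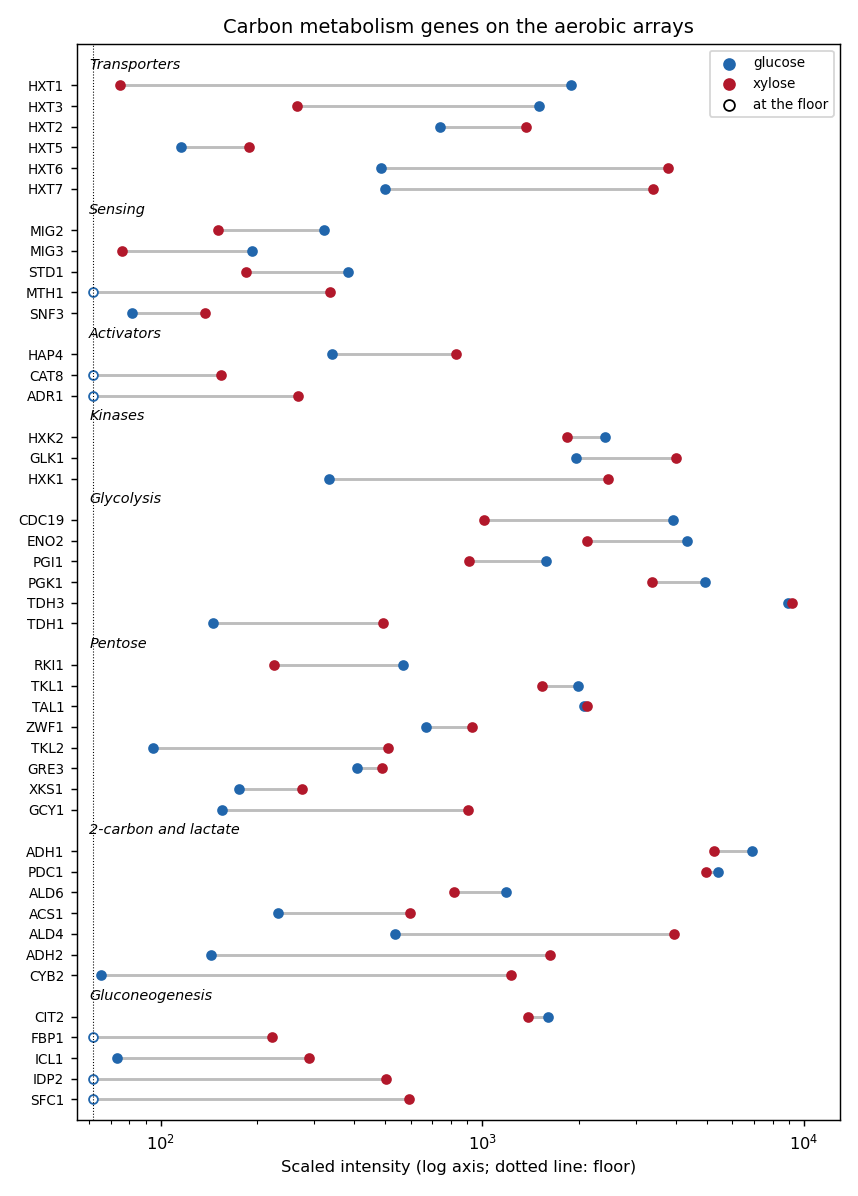
Scaled intensity (log axis) of 43 genes of carbon metabolism on the aerobic glucose array (blue) and xylose array (red), grouped by role; open circles are at the floor, drawn as a dotted line. HXT1, HXT3 and CDC19 run to lower values on xylose, while HXT6, HXT7, HXK1, ALD4, ADH2 and CYB2 run to higher ones.

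Genes for ethanol, acetate and lactate use were among the highest on xylose. CYB2, the mitochondrial L-lactate dehydrogenase that passes electrons to cytochrome c, read 65.4 on glucose and 1234 on xylose, 18.9-fold higher. JEN1, the lactate and pyruvate permease, read 175 and 1848.5, 10.6-fold higher. ADH2, the glucose-repressed alcohol dehydrogenase that oxidises ethanol, read 143 and 1621, 11.3-fold higher, while ADH1, the main fermentative enzyme, was at 6890 and 5244. Acetaldehyde and acetate genes went with ADH2. ALD4, the mitochondrial aldehyde dehydrogenase, read 537 and 3950.0 (7.36-fold), and ALD3, a stress-induced cytosolic isoform, was at the floor on glucose and at 356 on xylose (at least 5.77-fold). The acetyl-CoA synthetase ACS1 was at 233 and 596 (2.56-fold), and ACH1, an acetyl-CoA hydrolase, at 396 and 1353 (3.41-fold). The glucose-phase partners ALD6 (1184 and 818) and ACS2 (2667 and 2964) stayed within 2-fold, with neighbours of ALD6 at -0.65. ADH5 was lower, at 758 and 357. Of 17 compared ethanol and acetate genes, 5 were higher and 1 lower, with a median of 0.15. PDC1, the main pyruvate decarboxylase, was at 5422 and 4979.

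A few genes of glycerol use and pyruvate import were also higher on xylose. GUT2, the mitochondrial glycerol-3-phosphate dehydrogenase, read 171 and 1098, 6.41-fold higher, and the glycerol kinase GUT1 read 135 and 310.0, 2.30-fold higher. GPD1, which makes glycerol phosphate, was at 562 and 639. MPC3, the subunit of the mitochondrial pyruvate carrier used in respiratory growth, read 136 and 892, 6.54-fold higher, against 1517 and 1379 for its fermentative counterpart MPC2. Of 10 genes in each group, 2 glycerol genes and 1 pyruvate gene were higher and none was lower. Over all compared genes 3.13% were higher, and in a group of 10 a single gene says little beside that share.

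Glyoxylate cycle and gluconeogenesis genes had the highest median of the 61 lists, 1.75, with 6 of 8 genes higher and none lower. SFC1, the mitochondrial carrier that exchanges succinate for fumarate, was at the floor on glucose and at 591 on xylose, at least 9.59-fold higher. IDP2, the cytosolic NADP-dependent isocitrate dehydrogenase, was at the floor and at 502, at least 8.14-fold higher. ICL1, the isocitrate lyase, read 73.2 and 291 (3.97-fold), and FBP1, the fructose-1,6-bisphosphatase, the floor and 222 (at least 3.60-fold). PCK1, which makes phosphoenolpyruvate from oxaloacetate, read 95.2 and 301.5 (3.17-fold), and MDH2, the cytosolic malate dehydrogenase, 241 and 621 (2.58-fold). MLS1, the malate synthase, was at 71.7 and 131, a difference of 0.87. CIT2, the peroxisomal citrate synthase, was the exception at 1608 and 1388.

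The TCA cycle had 5 of 14 compared genes higher and none lower, with a median of 0.95. Succinate dehydrogenase feeds electrons from the cycle into the respiratory chain, and its genes SDH4, SDH1 and SDH2 stood first. SDH4 read 835 and 2533 (3.03-fold), SDH1 1221 and 3431 (2.81-fold) and SDH2 1324 and 3296 (2.49-fold). The subunit gene SDH3, at 1735 and 3280 (1.89-fold), did not pass 2-fold. KGD1, a subunit of 2-oxoglutarate dehydrogenase, was at 636 and 1512, and LSC2, a subunit of succinyl-CoA ligase, at 485 and 1133. ACO1 (1213 and 2279), LSC1 (1077 and 2119) and MDH1 (2820.0 and 5542.5) were just under 2-fold. CIT1 was at 2307 and 2030 beside neighbours at -0.82, IDH1 at 903.4 and 902.6 beside neighbours at -0.34, and FUM1 at 1322 and 1327.

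Read by their yeast probe sets, nuclear genes of the later respiratory complexes and of ATP synthase were all higher on xylose, mostly by less than 2-fold. All 11 genes of the cytochrome bc1 complex and cytochrome c were above 0, with a median of 0.59, and 1 of them passed 2-fold. It was CYC7, the minor cytochrome c isoform, at 105 and 368.5, where the major isoform CYC1 read 2655 and 3980. For RIP1, a bc1 gene, the 2 kinds of probe set went opposite ways. Its yeast probe set differed by 0.59, and the array's RIP1 control read 1898 and 1170, a difference of -0.70. All 9 nuclear cytochrome oxidase subunits were above 0 but none reached 2-fold, from 0.36 to 0.83. COX5A, the aerobic isoform of a subunit that also has a hypoxic form, read 1674 and 2474. The 16 ATP synthase genes were all above 0 as well, with a median of 0.70. Their 2 higher members were STF1 (561 and 1862) and STF2 (289 and 852), which encode proteins tied to the inhibitor of the enzyme's ATP-hydrolysing activity. The internal NADH dehydrogenase NDI1 read 525 and 1221, 2.32-fold higher, the external enzyme NDE1 2012 and 2976, and the D-lactate dehydrogenase DLD1 611 and 1888, 3.09-fold higher. DLD3, a cytosolic enzyme that uses D-2-hydroxyglutarate, read 825 and 408, 2.02-fold lower. The 5 compared protein genes of the mitochondrial genome had a median of -0.020, and 3 more were at the floor on both arrays. The RNA was primed with oligo(dT), per the labels, and how well that captures mitochondrial transcripts was not tested. Of 71 mitochondrial ribosomal proteins 68 were above 0, with a median of 0.40. Only 1 gene, MRPS16 (173 and 537), passed 2-fold, a smaller share than the 3.13% of all compared genes.

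Fatty acid and transport genes followed in part. FAT3, which takes part in fatty acid uptake, was at the floor on glucose and at 720 on xylose, at least 11.7-fold higher. ADY2, an acetate permease, was at the floor and at 202, at least 3.27-fold higher. ATO2, an ammonium transporter related to it, was at the floor and at 371.5, at least 6.02-fold higher amid neighbours at -0.61. Together with JEN1 these made 4 of 9 uptake genes higher and none lower. In beta-oxidation, which in yeast takes place in the peroxisome, POT1 (thiolase) was at the floor and at 162.5, FOX2 (the multifunctional enzyme) at 243 and 582, and PEX11 (peroxisome division) at 520.4 and 1252. POX1, the first enzyme, differed by 0.40 between 122 and 161. FAA1, a long-chain acyl-CoA synthetase, was 2.43-fold lower at 514 and 212, with neighbours at -0.26. Altogether 4 of 19 fatty acid oxidation genes were higher and 1 lower, with a median of 0.39. Among mitochondrial carriers 4 of 16 were higher, SFC1 first and ODC1 (2-oxodicarboxylates) next at 294 and 850.1.

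Storage carbohydrate genes were higher on xylose. Of 12 compared glycogen genes 8 were higher and none lower, with a median of 1.35. They included genes for making and for breaking down glycogen. GPH1, the phosphorylase that breaks glycogen down, was at the floor and at 365 (at least 5.92-fold), and GDB1, the debranching enzyme, at 125 and 423 (3.39-fold). GLC3, the branching enzyme, was at 141 and 528 (3.74-fold). Of the synthase genes, GSY1 was at the floor and at 189, and GSY2 at 136 and 286. PGM2, the phosphoglucomutase induced in stress, read 178 and 1021 (5.74-fold), whereas its isoform PGM1 read 732.5 and 608.5. All 7 trehalose genes were above 0, with a median of 0.79, and 2 passed 2-fold: TSL1, a regulatory subunit of the synthase, at 353 and 793, and ATH1, the acid trehalase, at 64.8 and 134.

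Stress genes of the small heat shock and general stress groups were among the highest values. HSP12, a small membrane-associated stress protein, read 324 on glucose and 5319 on xylose, 16.4-fold higher. DDR2, a gene induced by many stresses, read 623 and 5171, 8.30-fold higher. TMA10, a ribosome-associated protein, was at the floor and at 701, at least 11.4-fold higher. In the general stress group 10 of 15 compared genes were higher and none lower, with a median of 1.22, among them MSC1 (118 and 749), GAD1 (glutamate decarboxylase, 100.5 and 428) and TFS1 (209 and 718). In the small heat shock group 4 of 7 were higher, among them HSP26 (the floor and 221) and HSP42 (342 and 872), while the disaggregase HSP104 was at 291 and 496. The Hsp70 and Hsp90 chaperones had a median of 0.010, with none of 16 higher. Their lower member, the co-chaperone STI1, read 1194 and 461 beside neighbours at -0.96. Oxidant defence genes had 3 of 24 higher: CTT1, the cytosolic catalase, at the floor and 413, SOD2, the mitochondrial superoxide dismutase, at 410 and 1356, and PRX1, a mitochondrial peroxiredoxin, at 289 and 859. SOD1, the cytosolic enzyme, was at 6518 and 8036.

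**Figure D4:**
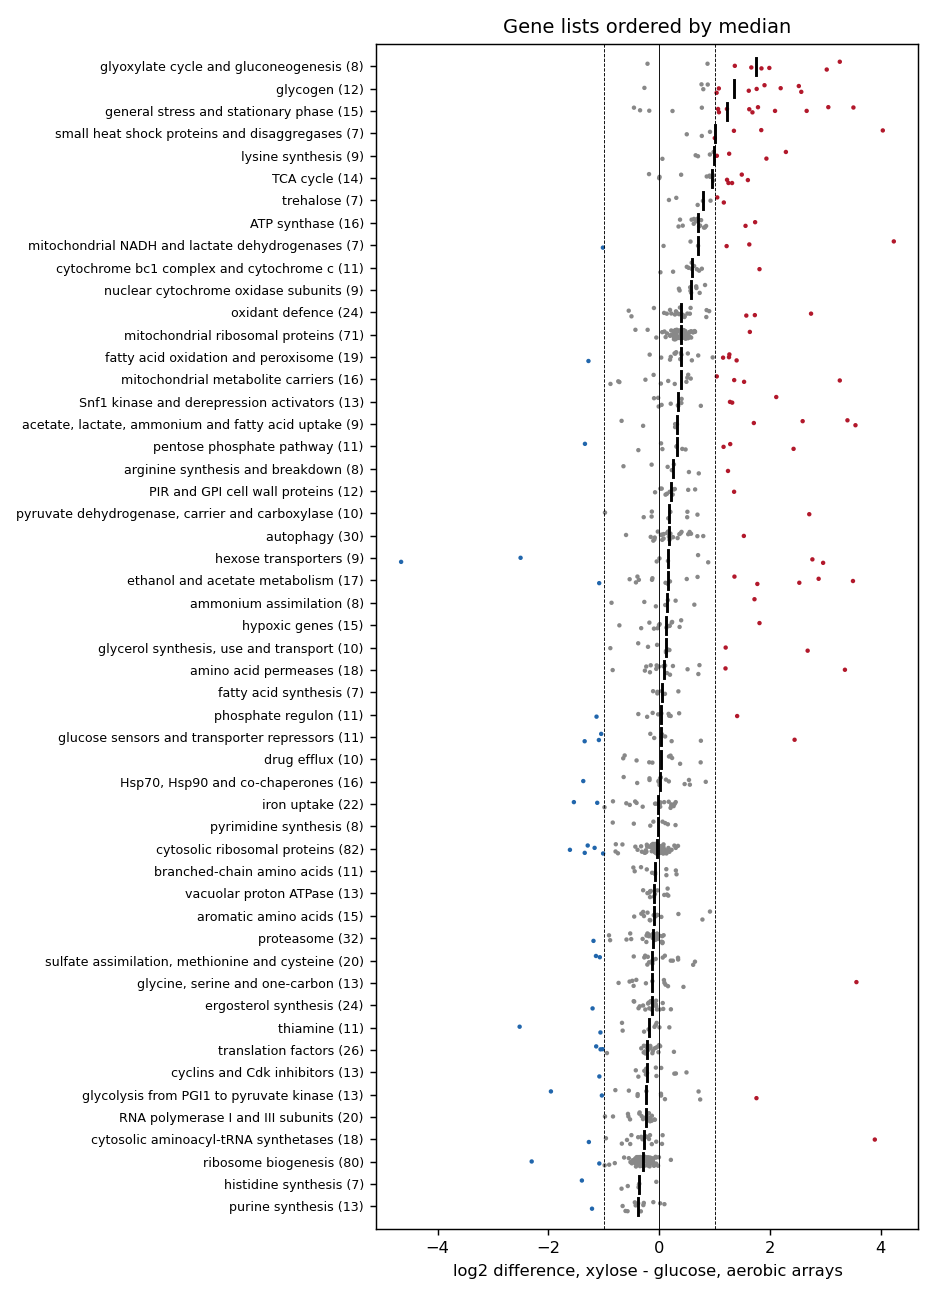
Log2 difference (xylose minus glucose, aerobic arrays) of each compared gene in the 52 lists with at least 7 compared genes, ordered by the list median (black bar), with the number of genes in brackets; red points are at least 2-fold higher, blue points at least 2-fold lower. Glyoxylate and gluconeogenesis genes lie at the top with a median of 1.75 and purine synthesis at the bottom with -0.38.

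Most genes for building ribosomes and for translation lay slightly lower on xylose, with few past 2-fold. Of 80 ribosome biogenesis genes, which assemble ribosomes in the nucleolus, 79 were below 0, with a median of -0.29 and a median of -0.28 after subtraction of the neighbours. HAS1, a nucleolar RNA helicase, for example, read 689 and 529.5. RLP7 (702 and 142, neighbours at -0.81) and RRS1 (neighbours at -0.25) were the 2 lower genes. All 20 RNA polymerase I and III subunits were below 0, with a median of -0.23 and none past 2-fold. Translation factors had a median of -0.21, with 24 of 26 below 0. The 3 of them that were lower, CDC33, TIF3 and TIF5, had neighbour medians from -0.59 to -0.64. Cytosolic aminoacyl-tRNA synthetases had a median of -0.27, with 15 of 18 below 0. Cytosolic ribosomal proteins, in contrast, had a median of -0.045. Their 5 lower genes of 82 were RPS15 (4846 and 1584, neighbours at -0.52), RPP2A (6187 and 2435, -0.72), RPL3 (2509 and 1117, -0.96), RPS7A (3311 and 1352, -0.23) and RPL5 (6379 and 3160, -0.15). After subtraction of the neighbours 2 of the 82 remained at least 2-fold lower.

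Amino acid genes split by pathway. All 9 lysine synthesis genes were above 0, with a median of 0.98, and 4 were at least 2-fold higher. LYS9, the saccharopine dehydrogenase of the next-to-last steps, read 208.5 and 1018 (4.88-fold), LYS1 247 and 945 (3.83-fold), LYS20, a homocitrate synthase, 1527 and 3665 (2.40-fold) and LYS4, the homoaconitase, 237 and 487 (2.06-fold). All 7 histidine synthesis genes were below 0, with a median of -0.37, and HIS4 read 1545.5 and 587, 2.63-fold lower with neighbours at -0.10. Purine synthesis had the lowest median of the 52 drawn lists, -0.38, with 11 of 13 genes below 0. Its lower gene, ADE2, had neighbours at -1.06. AGX1, the alanine-glyoxylate aminotransferase that makes glycine, read 134 and 1579, 11.8-fold higher, the only member of 13 one-carbon genes past 2-fold. PUT4, the proline permease, read 99.9 and 1021, 10.2-fold higher, the largest difference of 18 amino acid permeases. GDH2, the NAD-dependent glutamate dehydrogenase, read 70.2 and 231, 3.29-fold higher. The branched-chain and aromatic amino acid lists had medians of -0.075 and -0.10 with no gene past 2-fold.

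ALA1, the gene for alanyl-tRNA synthetase, stood apart from the other synthetases. It read 76.6 on glucose and 1138 on xylose, 14.9-fold higher, where the other 17 synthetases were all below 2-fold on the higher side. On the 4 other arrays it read 607 on glucose and 483 on xylose in oxygen-limited cells, and 688 and 490 in the petite. The aerobic glucose array was thus the low one, at least 2-fold below each of the 5 others. The same was true of 21 genes in all, CYB2, GCY1, GPH1, HSP26 and MRPS16 among them. The opposite departure, the glucose array at least 2-fold above each of the 5 others, was found for 5 genes, HXT1 and RKI1 among them. The xylose array was at least 2-fold above all others for PUT4 and SFC1, and below all others for 14 genes.

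Of the 15 lowest genes, those with neighbours above -0.25 were HXT1, HXT3, MF(ALPHA)2, CDC19, ARI1, OPT1 and RRP3. MF(ALPHA)2, 1 of 2 genes for the alpha-factor pheromone, read 1415 and 315, 4.50-fold lower, and the other, MF(ALPHA)1, read 3581 and 2393 with neighbours at -0.28. ARI1, an NADPH-dependent aldehyde reductase, read 401 and 107 (3.75-fold), OPT1, a glutathione and oligopeptide transporter, 261 and 74.5 (3.51-fold), and RRP3, an RNA helicase of ribosomal RNA processing, 494 and 157 (3.15-fold). The others lay among low neighbours. PHO3, the thiamine-repressed acid phosphatase, read 1277 and 222, a difference of -2.52 beside neighbours at -0.54. TOP1, the DNA topoisomerase I, was at the floor on xylose, a difference of -1.92 or beyond beside neighbours at -0.99. PET8, ALG5, PET123 and LPL1 had differences from -1.57 to -1.72 and neighbours from -0.60 to -1.12.

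Lists less tied to the carbon source held few genes or none past 2-fold. Over all compared genes 3.13% were higher and 2.1% lower. The iron, phosphate and thiamine lists, all small, lay above that share for lower genes. Iron uptake had a median of -0.022 and 2 of 22 lower, the phosphate regulon 0.039 with 1 higher and 1 lower of 11, and the thiamine genes -0.19 with 2 of 11 lower, PHO3 and THI72 (neighbours at -0.96). In 15 compared hypoxic genes CYC7 alone passed 2-fold. Ergosterol synthesis had a median of -0.13, with 20 of 24 below 0 and ERG10 lower beside neighbours at -0.81. The proteasome (-0.11), vacuolar proton ATPase (-0.095), histones (0.069), fatty acid synthesis (0.045) and drug efflux (0.027) had medians close to 0. The alpha-cell markers checked the label: MF(ALPHA)1 and STE3, the a-factor receptor gene of alpha cells (1705 and 1551), were well above the floor, and all 4 alpha-cell genes were below 0. The a-cell receptor gene STE2 and the protease gene BAR1 were at the floor on both arrays, as were 4 of 7 a-cell and 4 of 7 sporulation genes. The a-factor genes MFA1 (588 and 488) and MFA2 (183 and 135) were nevertheless above the floor.

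The oxygen-limited and petite pairs share no array with the aerobic pair, and their cultures also differed in sugar level, density or strain and handling. Of the 161 genes higher on xylose in aerobic culture, 160 were compared in each of the others. In the oxygen-limited pair 122 of them (76.2%) were at least 2-fold higher, against 8.78% of all its genes, and they made up 26.6% of its 458 higher genes. In the petite pair 85 (53.1%) were, against 5.78% of all genes, and they made up 28.1% of its 303 higher genes. A total of 70 were higher in all 3 pairs, and 24 passed 2-fold in neither other pair. Of the lower genes, 21 of 104 compared (20.2%) were at least 2-fold lower in the oxygen-limited pair, against 4.22% of all its genes, and 22 of 105 (21.0%) in the petite pair, against 5.28%. Lower genes with neighbours above -0.25 recurred in 13 of 32 and 12 of 33 cases, and those with low neighbours in 8 of 72 and 10 of 72.

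**Figure D5:**
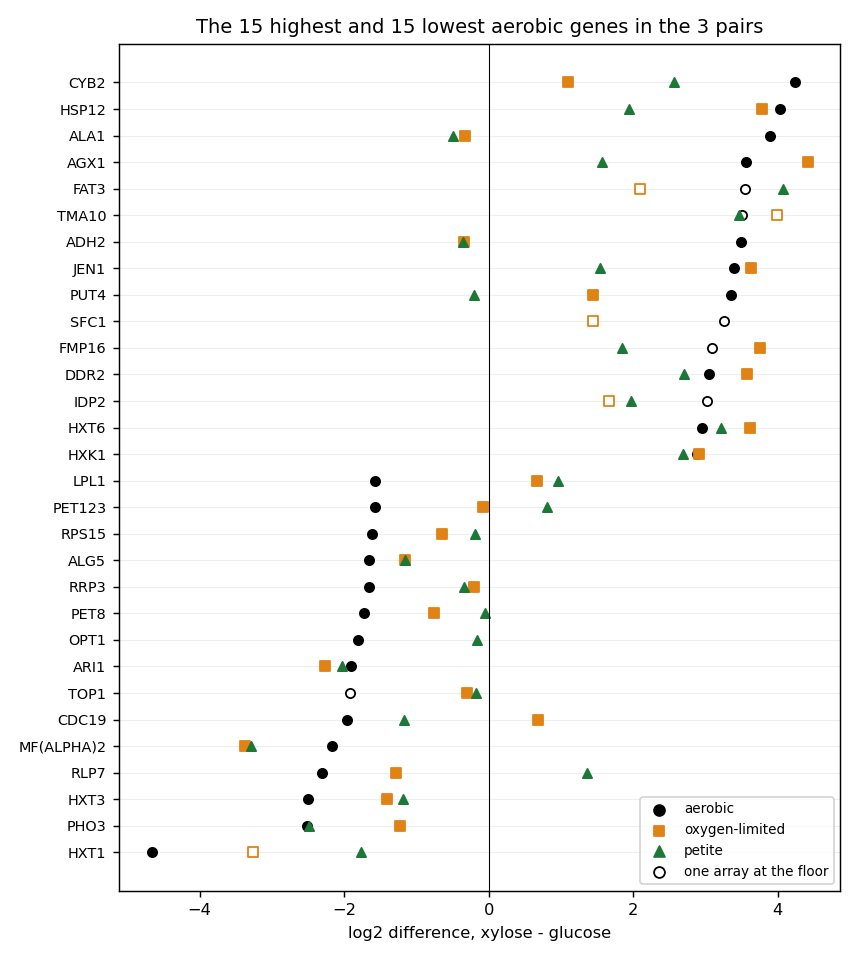
Log2 difference (xylose minus glucose) of the 15 highest and 15 lowest aerobic genes in the aerobic (circles), oxygen-limited (squares) and petite (triangles) pairs; open symbols have 1 array at the floor. Of the 15 highest genes 13 are at least 2-fold higher in the oxygen-limited pair and 11 of the 14 compared in the petite pair; ALA1 and ADH2 lie below 0 in both.

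Gene by gene, the opposite differences of HXT1 and HXT6 were found in all 3 pairs. HXT1 differed by -4.66 in aerobic, -3.26 or beyond in oxygen-limited and -1.76 in petite cells, and HXT6 by 2.96, 3.62 and 3.22. HXK1 gave 2.89, 2.91 and 2.69, and MTH1 at least 2.44, then 3.75 and 3.35. HAP4 gave 1.28, 2.97 and 1.97. The respiratory groups had larger medians in the oxygen-limited pair: 1.58 for cytochrome oxidase against 0.58 in aerobic culture, and 1.36 for ATP synthase against 0.70. CDC19 was lower in the aerobic (-1.96) and petite (-1.18) pairs and at 0.68 in the oxygen-limited pair. The lysine list had medians of 0.98, 0.046 and 0.76. None of these differences between pairs was tested, since each rests on 1 array per culture.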

How the data were processed

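The deposited values came from Affymetrix yeast arrays, 1 array per condition, in the authors' value table, and were treated as linear intensities. The authors' probe summary and its scaling were not given in the sources used here. RNA was total RNA primed with oligo(dT), per the labels. The 2 aerobic arrays had median deposited intensities of 127 and 132, and ACT1 control ratios (3′ over 5′) of 1.62 on glucose and 1.26 on xylose.

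All 6 arrays were scaled to a common median intensity of 150.9, values under the 25th percentile (61.7) were set to it, and log2 differences were taken within each pair of arrays; a gene with 1 array at the floor entered list medians at its bound. A total of 60 control probe sets and 1 without a value were left out. Of 9274 yeast probe sets, 6504 had 1 gene symbol in the platform annotation, 328 several and 2442 none. Each gene was read by its probe set with the highest mean. A gene was called at a 2-fold difference. With 1 array per condition no test was made; so few arrays limit the precision. The steps were tested on simulated data.

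Named genes were the 15 highest and 15 lowest whose brighter aerobic array lay above the common median and that had a symbol. The 3 highest and 3 lowest members of each described list were added. The rule also took every member of the lists of hexose transporters, glucose sensors, hexose kinases, native xylose genes, and NADH and lactate dehydrogenases. Alpha-cell and a-cell genes were taken in full too. A listed panel of single genes, such as ADH1, PDC1 and CIT1, completed the rule. Other genes named were chosen after their values were seen. The members and the 61 gene lists were chosen with earlier results of these data known. Alternatives covered scaling, floor, choice of probe set, arrays used, a trend along probe set numbers and the fold. The subtraction of neighbouring probe sets and the omission of numbers 7500 up to 9000 were chosen after seeing the data. Python 3.11.15, numpy 2.4.6, pandas 2.3.3 and matplotlib 3.10.9 were used.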

Additional observations from a re-analysis of the deposited data

Results flagged for a closer look

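In 6 genes taken by the naming rule the aerobic pair differed at least 2-fold one way. Both other pairs went the other way by more than 0.21, the spread between probe sets of a gene. With 1 array per culture the difference between pairs was not tested. ADH2 was higher by 3.50 on the log2 scale in aerobic culture and at -0.35 in the oxygen-limited and -0.35 in the petite pair. ALA1 was higher by 3.89, against -0.33 and -0.49. ENB1, a siderophore transporter, was at -1.12 against 0.37 and 0.32, with neighbours at 0.014. LPL1, a phospholipase of lipid droplets, was at -1.57 against 0.66 and 0.96, and STI1 at -1.37 against 1.21 and 0.48, both among low neighbours (-1.10 and -0.96). THI72, a thiamine transporter homologue, was at -1.06 with xylose at the floor, against 0.68 and 1.13; its neighbours lay at -0.96 and its second probe set gave -0.26. HUT1, which the naming rule did not take, was at 2.38 or more against -0.014 and -0.38. Its oxygen-limited value lay within the spread between probe sets, so it would not have been flagged.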

How the results depend on the processing

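The main counts were 161 higher and 108 lower genes. Lower genes numbered 64 with the floor at the 40th percentile, 31 with neighbouring probe sets subtracted (30 of them among the 108) and 26 with probe set numbers 7500 up to 9000 left out. At 3-fold 75 genes were higher and 13 lower, and 27 instead of 82 passed the fold in all 3 pairs. The other settings gave 124 to 175 higher and 78 to 128 lower genes, within 1.5 times the main counts. As deposited, without scaling, 174 were higher and 81 lower (68.2% higher, against 59.9%). Of 548 list medians under the alternatives 11 moved by more than the spread between probe sets, and of 3272 values of named genes 174 did; no called value changed sign. No paired analysis was possible because each condition has 1 array and the labels give no replicate numbers. Low intensities were limited by the floor, which left 517 genes uncompared.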

Other observations

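Some of the largest differences lay in genes outside the lists, picked out here after their values were seen. Mitochondrial outer membrane proteins were among them: OM45 read 129.5 on glucose and 681 on xylose, a log2 difference of 2.40, and OM14 read 477 and 1692, a difference of 1.83. RGI1 and RGI2, paralogues with a part in energy metabolism under respiratory growth, differed by 2.30 and at least 2.09. GOR1, a glyoxylate reductase, differed by 2.12, and FMP16, a mitochondrial protein, by at least 3.10. PUT1, the proline oxidase that acts on what PUT4 brings in, differed by 1.14. UBI4, the stress-induced polyubiquitin gene, differed by 1.19. HUT1, a protein related to nucleotide sugar transporters, differed by at least 2.38, against -0.014 in the oxygen-limited and -0.38 in the petite pair.

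The probe set of SNR5, a small nucleolar RNA gene, read higher by at least 2.03 on xylose. The aerobic glucose array was the low one, at least 2-fold below each of the 5 others. The RNA was primed with oligo(dT), and how well that captures this RNA was not tested.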
